A study of Prunus persica with 4 samples.

Results

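The study deposited miRNA candidates for *Prunus persica* cv. Lovell, which it calls peach-specific. Of these candidates, 10 moderately abundant ones are described and set against the 176 others of the same table: miRC1, miRC14, miRC58, miRC78, miRC86, miRC88, miRC104, miRC106, miRC112 and miRC181. They were chosen by 2 conditions: 8 of them had a quantitative PCR (qPCR) primer in the study and a total count of 500 reads or fewer, and miRC86 and miRC106 were added because their most abundant sequences are the same as those of miRC58 and miRC104. Together the 10 candidates hold 8 distinct main sequences, the main sequence being the one on the arm with more reads. All counts come from 1 small RNA library without a replicate, for which flower buds, young stems and young leaves of garden-grown trees were mixed, so no value belongs to 1 tissue and no value has a replicate error. Intervals are 95% intervals and cover counting error only, since amplified reads are not independent molecules. The 3 degradome libraries, from young leaves, young stems and flowers, were not analysed here.

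A plant miRNA is cut from a longer transcript that folds back on itself. A Dicer-like enzyme releases a short duplex from this hairpin, with one strand from the 5′ arm (5p) and one from the 3′ arm (3p), and one of them usually enters the silencing complex while its partner, the miRNA star, is degraded. Reads on both arms, and a duplex whose strands overhang at their 3′ ends, are the traces that such processing leaves in a small RNA library. In plants the miRNA pairs with its target over nearly its whole length, and the target is often cleaved.

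The 8 main sequences are printed here because both the counts and the primers refer to them. They are written 5′ to 3′ with T for U, as deposited, and the capitals mark the seed, bases 2 to 8.
miRC1, 3p: aACGGCGTcgttttggaccagca
miRC14, 5p: gGGTGAGAggttgccggaaaga
miRC58 and miRC86, 5p: cAATTGTAgaaaattagtgggtt
miRC78, 3p: aTGGCGTTggatgttccggtgta
miRC88, 3p: aGGGACTAatgatgcaacacaac
miRC104 and miRC106, 5p: tGAGCCAAggatgacttgcca
miRC112, 5p: tTGATCACtgtagccacggat
miRC181, 3p: aGTCATGAtctcttggactac

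These sequences had 8 different seeds. Outside the 10 candidates 1 other candidate, miRC108, carried one of them, the seed of miRC104. The main sequence was 23 nt long in 5 of the 10 candidates, 21 nt in 4 and 22 nt in 1. It started with adenine in 4, uracil in 3, cytosine in 2 and guanine in 1. Uracil was thus first in 3 of 10, against 40.3% of all candidates, and miRC104 and miRC106 count the same sequence among these.

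The 10 candidates had 21 to 222 reads on the precursor, with a median of 66.5, against a median of 12 for the 176 others, which ran from 5 to 1883 reads. Both ends of this range rest on the choice of candidates. With miRC82, which also has a primer and had 19 reads but is not in the list, the median would be 42. The highest, miRC1, ranked 20th of all candidates and the lowest, miRC78, 67th. The limit of 500 reads fell in a wide gap. Among the 13 candidates with a primer, miRC1 was the highest below it with 222 reads, and the lowest above it was miRC16 with 531, followed by miRC179 with 599, miRC140 with 604 and miRC167 with 1136. The main sequence of miRC82 is that of a conserved miR169 member. The 10 candidates held 875 of the 15705 reads in the table, or 5.57% (exact interval 5.22 to 5.94%). Both numbers count reads of a sequence shared by several loci once per locus, so the interval treats repeated counts as separate reads. With each of the 8 distinct main sequences counted once, the precursors held 750 reads, including those off the main arm.

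**Figure D1:**
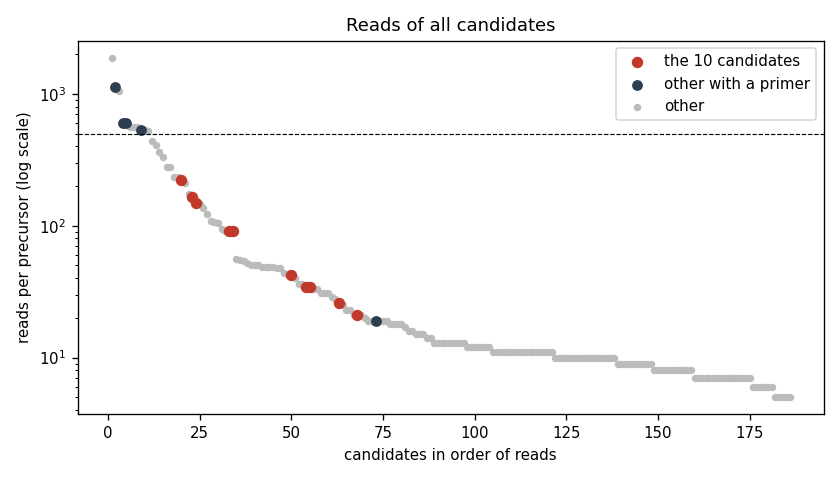
Reads per precursor (raw counts, log scale) of all candidates in order of reads; red points are the 10 candidates, dark points the other candidates with a primer, and the dashed line is the limit of 500 reads. The 10 candidates lie between 21 and 222 reads, and 4 of the 5 dark points lie above the line.

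miRC1 (scaffold 15, positions 103030 to 103154, minus strand) had 222 reads (exact Poisson interval 194 to 253), of which 213 were on the 3p sequence and 2 on the 5p sequence. miRC14 (scaffold 1, positions 29646062 to 29646181, plus strand) had 165 reads (141 to 192), with 92 on the 5p sequence and 73 on the 3p sequence. miRC112 (scaffold 4, positions 812673 to 813013, minus strand) had 149 reads (126 to 175), with 144 on the 5p and 2 on the 3p sequence. These 3 held 71.5% of the precursor reads when each of the 8 distinct main sequences was counted once (exact interval 68.1 to 74.7%).

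miRC104 and miRC106 had 91 reads each (73.3 to 112), with 78 on the 5p and 10 on the 3p sequence at either locus. Both are plus-strand loci of scaffold 4, miRC104 at positions 16645760 to 16645853 and miRC106 at 16664506 to 16664599. The 2 arm sequences are the same at both loci and so are the counts, so the table does not show which locus the reads came from. The same holds for miRC58 (scaffold 2, positions 8245295 to 8245371, minus strand) and miRC86 (scaffold 3, positions 4702895 to 4702971, minus strand). Each had 34 reads (23.5 to 47.5), with 30 on the 5p and 3 on the 3p sequence.

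miRC181 (scaffold 8, positions 10548110 to 10548181, plus strand) had 42 reads (30.3 to 56.8), with 15 on the 5p and 26 on the 3p sequence. miRC88 (scaffold 3, positions 5590539 to 5590626, minus strand) had 26 reads (17.0 to 38.1), of which 24 were on the 3p sequence and 1 was on the 5p sequence. miRC78 was the least abundant with 21 reads (13 to 32.1), 17 on the 3p and 3 on the 5p sequence (scaffold 3, positions 18264579 to 18264688, plus strand). Positions are those of the deposited table. The genome version behind them is not given in the sources used here, so no gene, exon or intron was assigned to the loci.

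In the order of reads, some neighbours lay apart beyond counting error and some did not. miRC1 had 1.35 times the reads of miRC14 (exact interval 1.095 to 1.66), miRC112 had 1.64 times those of miRC104 (1.25 to 2.15), and miRC104 had 2.17 times those of miRC181 (1.49 to 3.20). miRC14 and miRC112 were not apart, with a ratio of 1.11 (0.882 to 1.39). Below miRC181 no step was apart: the ratio was 1.24 for miRC181 over miRC58 (0.767 to 2.00), 1.31 for miRC58 over miRC88 (0.762 to 2.27) and 1.24 for miRC88 over miRC78 (0.670 to 2.31). Each step among these 4 low candidates is therefore within counting error. Ratios between candidates that are not neighbours in the order were not computed.

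**Figure D2:**
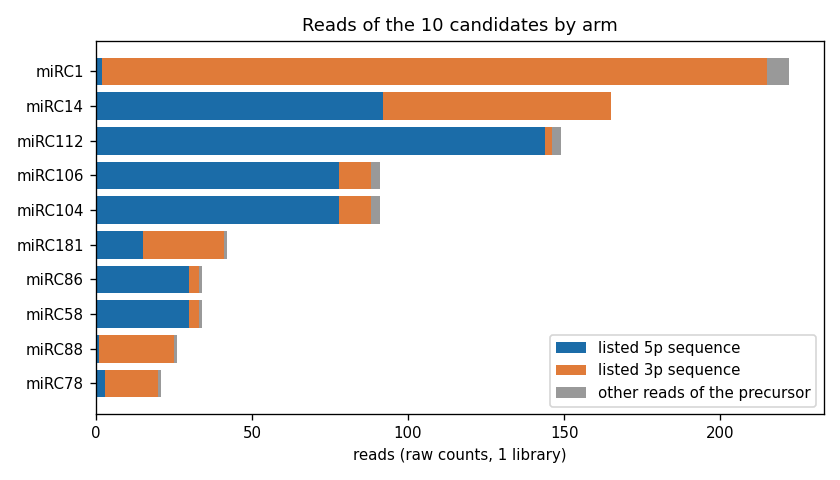
Raw reads of the 10 candidates, split into the listed 5p sequence, the listed 3p sequence and other reads of the same precursor. miRC1 is almost wholly 3p, miRC112 almost wholly 5p, and miRC14 is split between both arms; the bars of miRC104 and miRC106, and of miRC58 and miRC86, are the same.

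All 10 candidates had a listed sequence on both arms, against 24.7% of all candidates and 36 of the 176 others. Reads differed along with this, with a median of 35 over the 46 candidates with both arms and 13 over all candidates. Among the other candidates with 21 to 500 reads, 8 of 48 had both arms, or 16.7%. The other candidates with a primer, miRC16, miRC82, miRC140, miRC167 and miRC179, also had a listed sequence on both arms. The trait is thus shared by all candidates with a primer. Whether both arms played a part in the choice of candidates for primers was not tested.

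The less abundant arm was thinly covered in most of them. It had 1 to 3 reads in 6 of the 10 candidates and more in 4, namely miRC14, miRC181, miRC104 and miRC106. The more abundant arm held 99.1% of the arm reads in miRC1 (exact interval 96.7 to 99.9%), 98.6% in miRC112 (95.1 to 99.8%) and 96.0% in miRC88 (79.6 to 99.9%). It held 90.9% in miRC58 and miRC86 (75.7 to 98.1%), 88.6% in miRC104 and miRC106 (80.1 to 94.4%) and 85.0% in miRC78 (62.1 to 96.8%). These 6 distinct sequences had more reads than their partner beyond counting error.

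In miRC14 and miRC181 the arms could not be told apart by their reads. The 5p sequence of miRC14 held 55.8% of its arm reads (exact interval 47.8 to 63.5%), and the 3p sequence of miRC181 held 63.4% (46.9 to 77.9%), and both intervals include 50%. miRC14 rests on 165 arm reads, the second largest number among the 8 sequences, so its interval is narrower than that of miRC181, which rests on 41. In both, the strand called the star here had fewer reads only by a gap within counting error. Their less abundant arms are printed for that reason, with the seed in capitals.
miRC14, 3p: tTTCCGAAacctcccattccaa
miRC181, 5p: gGTCCAAGagatcgggactgt

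**Figure D3:**
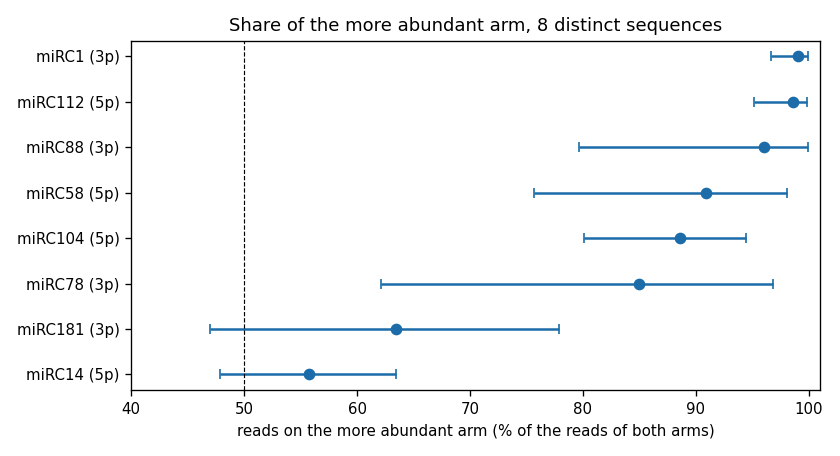
Share of the more abundant arm in the reads of both arms, in percent, for the 8 distinct sequences with exact 95% intervals; the arm is given in brackets and the dashed line marks 50%. The intervals of miRC14 and miRC181 cross the line and the other 6 lie above it.

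In the deposited structures both ends of the duplex had a 3′ overhang of 2 bases in all 10 candidates, against 89.1% of the 46 candidates with both arms. The candidates had been selected by MIREAP, which searches for hairpins, so this describes hairpins that passed that search. The arms of miRC88 formed 20 base pairs with each other, those of miRC1, miRC58 and miRC86 19 pairs, those of miRC112 and miRC181 18, and those of miRC14, miRC104 and miRC106 17. miRC78 had the fewest, 16 pairs, and 7 bases of its main sequence were unpaired. In the other 9 candidates 1 to 3 bases of the main sequence were unpaired. The median was 2.5 over the 10 candidates and 3 over the 176 others.

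Folded again with RNAfold, 4 of the 10 candidates had the deposited structure and the others differed in part. The arms of miRC104 and miRC106 formed 18 pairs in place of 17. In 1 candidate, miRC78, an overhang changed: its arms formed 8 pairs with each other in place of 16 and the overhang of the 5p strand became 14 bases, while the other 9 candidates kept 2 bases at both ends. Its energy moved by 4.7 kcal/mol, more than in any of the other 9.

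Precursors were 72 to 341 nt long. The shortest, miRC181, leaves 8 nt between its 2 listed sequences, miRC58 and miRC86 leave 11 nt, and miRC88 leaves 20 nt. In miRC104 and miRC106 the distance was 33 nt, in miRC14 36 nt, and in miRC1 and miRC78 40 nt. miRC112 stands apart with 280 nt between the arms and was the 7th longest precursor of all candidates. Its arms nevertheless had 18 pairs with each other and 1 unpaired base in the main sequence.

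**Figure D4:**
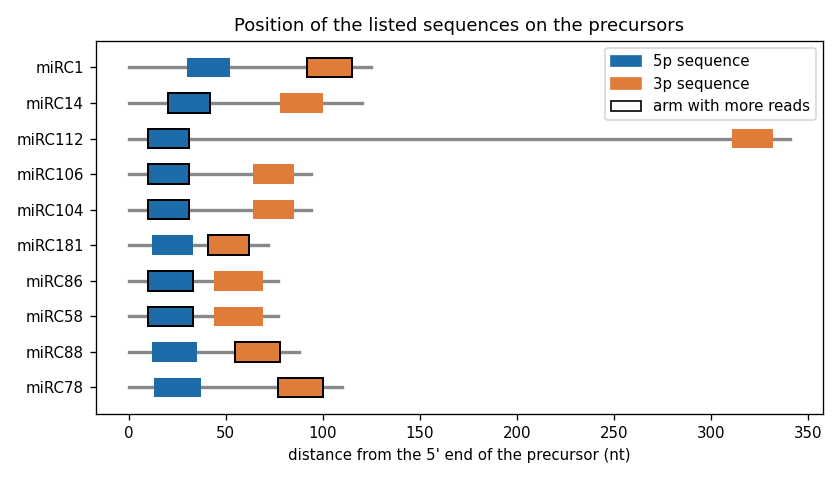
Position of the listed 5p and 3p sequences on the 10 precursors, as distance from the 5′ end in nt; the black frame marks the arm with more reads. The arms are 8 to 40 nt apart in 9 candidates and 280 nt apart in miRC112.

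The deposited folding free energy, given as its size, had a median of 46.4 kcal/mol over the 10 candidates and 47.6 kcal/mol over the 176 others. Per 100 nt of precursor the medians were 40.5 and 36.4 kcal/mol. Within the 10 the spread was wide. miRC88 had 57.2 kcal/mol per 100 nt, miRC181 56.1 and miRC104 50.9, which rank 14th, 16th and 22nd of all candidates. miRC106 followed with 48.5, miRC1 with 41.6, miRC14 with 39.3 and miRC112 with 38.6 kcal/mol per 100 nt. miRC78 with 27.1 and miRC58 and miRC86 with 25.2 were the lowest, at ranks 139 and 151 of all candidates. miRC58 and miRC86 also had the lowest GC content, 29.9%, against 35.0 to 46.4% in the other 8.

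**Figure D5:**
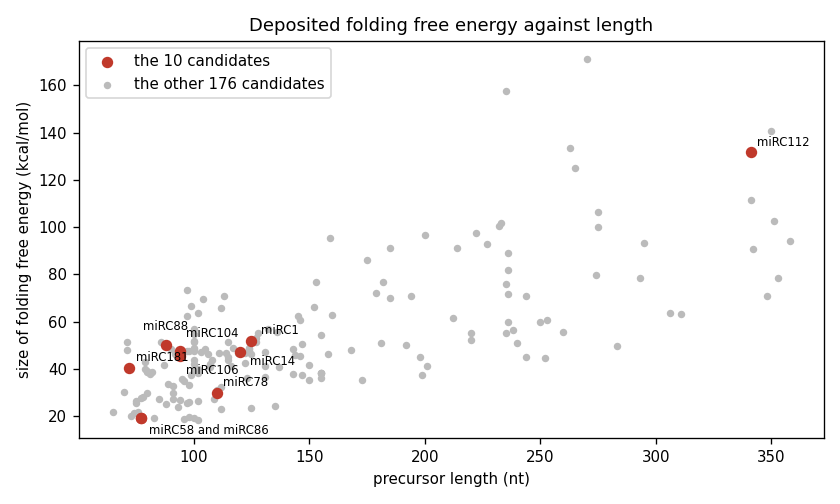
Size of the deposited folding free energy in kcal/mol against precursor length in nt, for the 10 candidates (red, named) and the other 176 (grey). miRC112 is long with 131.6 kcal/mol, and miRC58 and miRC86 share 1 point at 77 nt and 19.4 kcal/mol.

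The pairs of candidates with a shared main sequence were near copies over the whole precursor. Their precursors are printed because they show where the loci differ, with the differing bases in capitals.
miRC58: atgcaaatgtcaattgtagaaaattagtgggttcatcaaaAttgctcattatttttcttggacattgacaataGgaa
miRC86: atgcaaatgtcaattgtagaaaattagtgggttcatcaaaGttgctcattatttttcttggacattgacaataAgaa
miRC104: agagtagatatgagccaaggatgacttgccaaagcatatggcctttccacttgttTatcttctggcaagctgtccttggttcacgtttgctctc
miRC106: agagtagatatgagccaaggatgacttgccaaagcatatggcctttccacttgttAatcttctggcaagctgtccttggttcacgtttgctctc

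miRC58 and miRC86 differed at 2 of 77 positions, A41G between the arms and G74A outside them, counted from 1 at the 5′ end of the precursor with the base of miRC58 first. Both were deposited with an energy of 19.4 kcal/mol. miRC104 and miRC106 differed at 1 of 94 positions, T56A between the arms, with the base of miRC104 first, and had 47.8 and 45.6 kcal/mol. None of these differences lies in an arm, so small RNA reads of the arms cannot separate the copies.

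miRC104 and miRC106 resembled miR169, a conserved plant family that in Arabidopsis regulates subunits of the transcription factor NF-Y. Their main sequence was 3 edits from the nearest conserved miRNA of the study, a member of miR169, whereas the main sequences of the other 8 candidates were 9 to 11 edits from their nearest. An edit is 1 substituted, inserted or deleted base. Only the 117 conserved sequences listed by the study were compared. Likeness to miRNAs or families outside that list was not tested, for either arm. With the candidates miRC65, miRC81, miRC82, miRC102, miRC105, miRC107 and miRC135, miRC104 shared a stretch of 18 nt, shifted by 1 base, as these lines show with the shared stretch in capitals.
miRC105 and miRC107: cAGCCAAGGATGACTTGCCgg
miRC82: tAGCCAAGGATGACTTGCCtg
miRC135: tAGCCAAGGATGACTTGCCt
Because of the shift the seed of miRC104 differs from theirs by its register, while miRC108, at 3 edits, has the same seed and the stretch in common is 9 nt long.

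The loci miRC104 to miRC108 followed each other on the plus strand of scaffold 4 within 45893 nt. miRC105 starts 3235 nt after miRC104, miRC106 18746 nt, miRC107 30360 nt and miRC108 45779 nt. miRC105 and miRC107 had 278 reads each with a shared main sequence, and miRC108 had 136, all on its 5p sequence. miRC104 and miRC106, with 91 reads each, were thus the lowest of the 5. The other candidates named for their likeness lie elsewhere, and miRC82 had 19 and miRC135 had 9 reads.

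miRC14 was also 1 of 5 candidates close together, within 4021 nt on the plus strand of scaffold 1. miRC13 starts 1427 nt before it and had 40 reads. miRC15 starts 681 nt after it and had 36 reads, miRC16 2245 nt after it with 531 reads and miRC17 2458 nt after it with 520 reads. miRC16 and miRC17 overlap and list the same sequence at 475 reads. The main sequence of miRC14 was 7 edits or more from those of the other 4. Its less abundant 3p sequence was 3 edits from the 3p sequence of miRC17 and 5 each from the 3p sequence of miRC15 and the 5p sequence of miRC16, but 16 edits from the 1 listed sequence of miRC13 and 17 from the main sequences of miRC16 and miRC17. The longest stretch each shares with the 3p sequence of miRC14 is in capitals.
miRC17, 3p: cttcccAAACCTCCCATTCCta
miRC15, 3p: ttgcctattCCTCCCATgccaa
miRC16, 5p: ttgccaaccccgCCCATTCCAA
This likeness, noted after the values were seen, sits on the arm of miRC14 that had 73 reads, on the arm with more reads in miRC15 (34 of 36), and on the arm with fewer reads in miRC16 (37 reads) and miRC17 (38 reads). Apart from miRC14, miRC104 and miRC106, no candidate of the 10 had another candidate within 50 kb on its scaffold.

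miRC1 and miRC78 each held a second copy of the main sequence in the same orientation within the precursor. A copy at 3 or fewer mismatches was found in these 2 of the 10 candidates, against 4.30% of all candidates. In the other 8 the best window had 10 to 13 mismatches, and the median over all candidates was 10. Both precursors are printed with the main sequence and its copy in capitals.
miRC1: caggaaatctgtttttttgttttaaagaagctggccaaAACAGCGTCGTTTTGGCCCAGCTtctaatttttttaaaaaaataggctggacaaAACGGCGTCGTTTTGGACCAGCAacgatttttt
miRC78: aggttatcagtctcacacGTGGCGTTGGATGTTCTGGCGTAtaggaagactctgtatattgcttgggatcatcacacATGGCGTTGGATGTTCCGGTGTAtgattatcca

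In miRC1 the copy starts at position 39 of the precursor and the main sequence at position 93. They differ by G4A, A17C and A23T, counted from the 5′ end of the main sequence with its base first. In miRC78 the copy starts at position 19 and the main sequence at 78, and they differ by A1G, C17T and T20C. The copy covers 14 nt of the listed 5p sequence in miRC1 and 19 nt in miRC78, so the 2 arms of each candidate are partly the same sequence. The arms of miRC78 had a common stretch of 15 nt, the longest of the 46 candidates with both arms, and those of miRC1 one of 10 nt. The median over the 46 was 4 nt.

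The 8 primers of these candidates were compared with the listed sequences. Each lay on the arm with more reads, and 4 were identical to the listed sequence, those of miRC14, miRC78, miRC88 and miRC104. The other 4 differed as shown, with bases that are not in the listed sequence in capitals.
miRC1 primer: aacggcgtcgttttggaccag
miRC58 primer: Gaattgtagaaaattagtgggtt
miRC112 primer: ttgatcactgtagccacggatA
miRC181 primer: agtcatgatctcttggactacAA
The primer of miRC1 was 2 nt shorter than the listed sequence at its 3′ end. That of miRC112 was 1 nt longer and that of miRC181 2 nt longer, and the added bases are those of the precursors. The primer of miRC58 had the length of the listed sequence and the substitution C1G, with the listed base first, so it was the 1 primer of the 8 that did not occur whole in its own precursor. The listed sequence of miRC58 is also that of miRC86, so a signal from this primer cannot be assigned to either locus. The primer of miRC104 occurred in 2 precursors, its own and that of miRC106, and a signal from it cannot be assigned to either locus. It also shared 18 nt with the main sequences of miRC105 and miRC107, at 278 reads each. Whether it amplifies those was not tested. For miRC14 and miRC181 the primer measures the arm that was ahead by fewer reads than counting error resolves.

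The candidates with a primer were measured in the study by qPCR in leaves, young stems and flowers, and those values were not analysed here. It lists miRC1, miRC14, miRC112 and miRC181 as without a significant change among the tissues. Its discussion also calls nearly all tested candidates highly expressed in flowers, which must include most of these 4. The grouping below follows the list only. In the mixed library the 4 listed candidates had 42 to 222 reads, with a median of 157. The other 4 with a primer, miRC58, miRC78, miRC88 and miRC104, had 21 to 91 reads, with a median of 30. These are reads of the whole precursor, whereas each primer lies on the arm with more reads. On that arm miRC1, miRC14, miRC112 and miRC181 had 213, 92, 144 and 26 reads. For miRC58, miRC78, miRC88 and miRC104 the arm counts were 30, 17, 24 and 78. The ranges overlap by either count, and the depth of the mixed library says nothing about a single tissue. The first 4 had main sequences of 21 to 23 nt with 1 of 23 nt, and the other 4 had 3 of 23 nt. In its list of degradome targets the study names a chloroplast chaperone transcript for miRC1 and a NAC domain transcript for miRC104. The NAC domain transcript also stands under miRC135, whose main sequence is 2 edits from that of miRC104. By reads, the candidates with such an entry were the first and the fourth of the 8 distinct sequences. The study also reports targets for many other candidates, and a link between reads and such an entry was not tested.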

How the data were processed

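The authors made 1 small RNA library from mixed young leaves, young stems and flower buds, kept clean reads of 18 to 30 nt, removed reads that match other non-coding RNAs or miRBase entries, and ran MIREAP with default parameters against a peach genome whose version is not given in the sources used here. The deposited counts are raw reads per precursor and per arm sequence, with no normalization by the authors. The deposited folding free energies are the authors' values in kcal/mol. The table holds 15705 reads in all, which are a part of the library, so shares are of the reads in the table.

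Members and lists were chosen with earlier results of these data known. The 10 candidates were taken by name. Candidates over 500 reads with a primer, those that share a seed, those within 2 edits and those within 50 kb are named beside them. Candidates named at 3 or 4 edits, and the second copies within precursors, were chosen after their values were seen. Primer and conserved miRNA sequences come from the study's supplementary tables, from which no value was taken. No test was run, since there was 1 library and no group to compare. Counts have exact Poisson intervals, shares exact Clopper-Pearson intervals and ratios of 2 counts the interval of their share, all at 95% with scipy 1.17.1. For a count of 0 a fixed limit of 3 reads was set, which is not the upper end of the exact 2-sided interval. Precursors were folded again with RNAfold 2.7.2. Overhangs were read from base pairs, and where the 5′ end of a strand is unpaired the next paired base stands for it. The code was tested on simulated hairpins. Python 3.11.15, numpy 2.4.6 and matplotlib 3.10.9 were used.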

Additional observations from a re-analysis of the deposited data

How the results depend on the processing

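The sum of reads over the 10 candidates was 875. It was 750 with each distinct main sequence counted once and 732 with the most abundant arm only. Ranked by the most abundant arm, 4 of the 8 distinct sequences kept their place, because miRC14 and miRC112, and miRC181 and miRC58, changed order. In reads of the whole precursor neither pair was apart beyond counting error. On the most abundant arm miRC112 had 144 reads and miRC14 had 92, and miRC58 had 30 and miRC181 had 26. No interval was computed between these arm counts. At 2 or fewer mismatches 0 candidates of the 10 had a second copy in the precursor in place of 2, and at 5 or fewer there were 2; both limits were added after seeing the data. With all reads of the precursor as the total, the share of the main arm of miRC1 was 95.9%, below its interval, and the other 7 shares stayed within theirs. With miRC82 added, the median of reads was 42 in place of 66.5. The remaining alternatives changed no count or median by more than 1.5 times. With 21 to 42 reads, ratios among the 4 lowest sequences have wide intervals. Leaving out a replicate could not be done with 1 library. No paired analysis was possible because all counts belong to a single library.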
